A study of Rattus norvegicus with 2 samples.

Results

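The 10 genes described here carry fatty acids from the blood side of a cell into mitochondrial oxidation, and their transcripts were compared between endothelial cells of the endocardium, the inner lining of the heart, and endothelial cells of the aorta, both from rat. The members were chosen by gene symbol: Cd36, Lpl, Cpt1a, Cpt2, Acadvl, Acadm, Acadl, Echs1, Hadha and Hadhb, with every probe set that the platform annotation pairs with 1 of these symbols and no other. This gave 16 probe sets for the 10 genes, out of 7006 probe sets with exactly 1 symbol for 4736 genes. Per the labels, the endocardial group was endothelium of the endocardium and the aortic group endothelium of the aorta, both taken from the same 2 rats, pooled by origin, passaged 2 times and kept under culture conditions and confluence as alike as could be managed. Neither group carried a treatment in the labels, and the rats' strain and age are not given in the sources used here. Total RNA of both pools was hybridised to Affymetrix rat U34A arrays, 1 array per group, so there were no replicates and no test across samples was made.

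Long-chain fatty acids reach a cell when lipoprotein lipase frees them from triglyceride-rich lipoproteins and CD36 helps them across the plasma membrane. Inside the cell they are joined to coenzyme A, passed into mitochondria by the carnitine shuttle and shortened in repeated rounds of dehydrogenation, hydration, a second dehydrogenation and thiolysis. Capillary endothelium of the heart stands between the blood and a muscle that burns mainly fatty acids, and it binds lipoprotein lipase. Endothelial cells also oxidise fatty acids themselves.

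The enoyl-CoA hydratase Echs1 was the member that differed most, with an intensity of 4082.4 on the endocardial array, against 675.7 on the aortic array. The carnitine palmitoyltransferase Cpt1a had at least 2.10-fold higher endocardial intensity, but in a dim range in which a difference cannot be shown. The mitochondrial trifunctional protein subunits Hadha and Hadhb and the long-chain dehydrogenase Acadl were clearly present on both arrays and differed little, with log2 ratios (endocardial over aortic) from -0.21 to 0.51 over their 5 measured probe sets. The 2 probe sets paired with Cd36 alone were at background on both arrays. A further 5 were paired with both Cd36 and Cd36l1 and were not assignable to either gene. All of these were brighter on the endocardial array, but only 1 exceeded the brightest background control there, and 0 on the aortic array.

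Intensities are the deposited linear values and can fall below 0. Ratios were taken after both arrays had been scaled to the same 2% trimmed mean, with values under a floor of 635 (the median of all scaled values) set to that floor. A probe set at or under the floor on both arrays was left out, and a ratio with 1 array at the floor is a lower bound. A stricter mark was the brightest of 38 background controls on the array, at 1743.4. The log2 ratios of different probe sets of the same gene had an SD of 0.39 over 625 genes, which describes spread within a pair of arrays and leaves out any difference between cultures of 1 origin. Of the 16 member probe sets, 13 passed the floor on at least 1 array, 11 of them on both, and 3 did not. Background controls passed this floor as well, 6 in the endocardial data and 7 in the aortic data. Passing the floor alone therefore did not show that a transcript was present, and bounds taken at the floor share this limit. The highest background control was exceeded on both arrays by 6 probe sets, on 1 array by 3 and on neither by 7.

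Of the 13 measured member probe sets, 2 had at least 2-fold higher endocardial intensity (15.4%), where 6.82% of all 3975 measured probe sets were. None of the 13 was at least 2-fold lower, where 4.7% of all were. With 13 probe sets, 1 probe set stands for 7.69%, so the higher share was above that of all probe sets by little more than 1 probe set. The median log2 ratio of the 13 was 0.35, beside -0.02 over all measured probe sets, and 7 of the 13 lay within the same-gene SD of 0. Of all measured probe sets, 58.9% did so. Against the highest background control as the floor, 1 of 9 measured member probe sets, Echs1, passed 2-fold higher and 0 passed 2-fold lower, beside 4.8% and 3.18% of all 2544 probe sets measured that way. In a bulk sample, fewer cells of a type and less RNA per cell cannot be told apart.

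**Figure D1:**
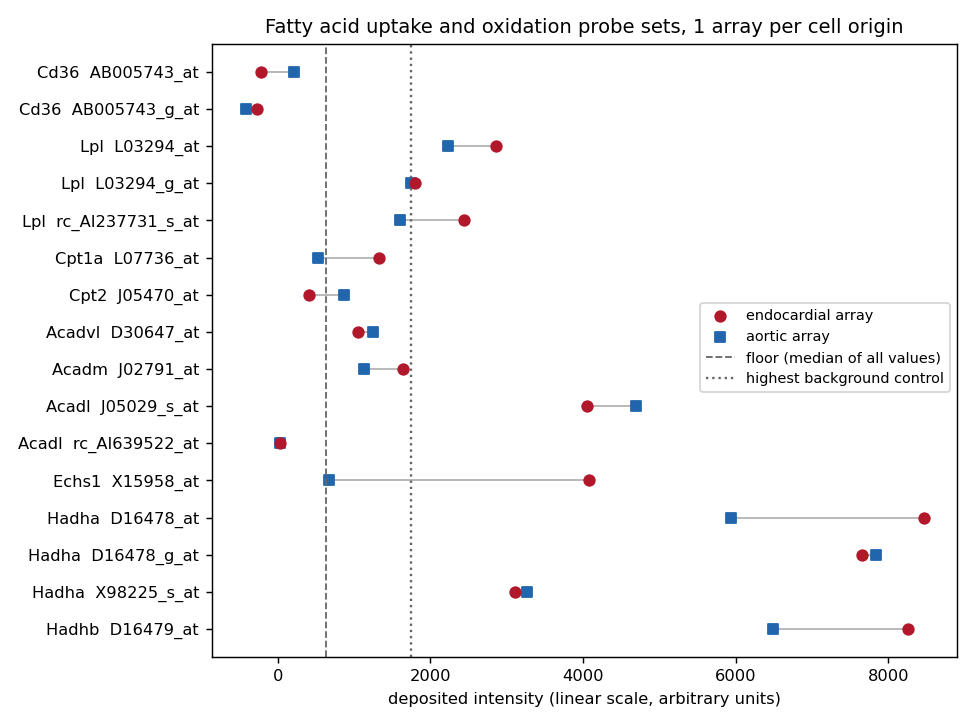
Deposited intensity (linear scale, horizontal) of each of the 16 member probe sets (rows, from uptake to oxidation) on the endocardial array (circles) and the aortic array (squares), with the floor (635, dashed) and the highest background control (1743.4, dotted). Echs1 shows the widest gap, with 4082.4 on the endocardial and 675.7 on the aortic array, while both Cd36 probe sets lie left of the floor on both arrays.

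Uptake is the first step. Cd36, the fatty acid translocase and scavenger receptor, had 2 probe sets. AB005743_at stood at -215.2 on the endocardial array, against 211.5 on the aortic array. AB005743_g_at stood at -273.6 on the endocardial array, against -419.9 on the aortic array. Both were under the floor on both arrays, so no ratio was formed and Cd36 was not detectable with these probe sets. A further 5 probe sets are paired with Cd36 and Cd36l1 together, cannot be assigned to either gene, and are described in the closing section.

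Lpl encodes lipoprotein lipase, which hydrolyses triglycerides of circulating lipoproteins. Its probe set L03294_at gave 2865.3 on the endocardial array, against 2228.8 on the aortic array (log2 ratio 0.36). The probe set L03294_g_at gave 1798.3 on the endocardial array, against 1743.4 on the aortic array (log2 ratio 0.04). The endocardial value was the higher in all 3, and the last, rc_AI237731_s_at, gave 2445.4 on the endocardial array, against 1609.3 on the aortic array (log2 ratio 0.60). The 3 ratios had a median of 0.36, under the same-gene SD, and none passed 2-fold. Only L03294_at exceeded the highest background control on both arrays, while L03294_g_at and rc_AI237731_s_at did so on the endocardial array alone. Against that control as the floor, rc_AI237731_s_at had a log2 ratio of 0.49.

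Macrophages are another known source of Lpl, and most of their measured markers were higher on the endocardial array. Of 10 macrophage markers on the array, 8 were measured, of which 6 passed 2-fold in the higher direction and 0 in the lower, where 5.93% of the 2935 genes measured did so in the higher direction. The 6 were lysozyme, Lyz2, the elastase Mmp12, the protease Ctss, the surface proteins Cd53 and Fcgr2b and the invariant chain Cd74. Cd14 and the leukocyte marker Ptprc, also measured, had log2 ratios of 0.38 and -0.09. Against the highest background control, 2 of 6 measured markers passed 2-fold higher, Lyz2 and Mmp12, and the list median was 0.67, beside 1.47 with the floor at the median. Against that control Ctss had 0.95, Cd14 0.38, Cd53 0.20 and Cd74 0.13. The summed intensity of all 10 markers was 53321 on the endocardial array, against 5372 on the aortic array, and Lyz2 alone gave 33638.5 on the endocardial array, against 287.6 on the aortic array. Itgam and Csf1r were under the floor on both arrays. The part of such cells in the Lpl values was not tested.

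The carnitine shuttle uses an acyltransferase on each mitochondrial membrane. Cpt1a, the liver-type isoform of the outer membrane and the regulated entry point of long-chain oxidation, had an intensity of 1332.5 on the endocardial array, against 530.8 on the aortic array. The aortic value was under the floor, which gave a bound of at least 2.10-fold in favour of the endocardial array (log2 1.07). Both values were under the highest background control. Cpt2, the inner-membrane enzyme that returns the acyl group to coenzyme A, had 416.4 on the endocardial array, against 874.9 on the aortic array. Here the endocardial value was under the floor, which gave a bound of at least 1.38-fold lower (log2 ratio -0.46). The ratios of the 2 shuttle enzymes lay on opposite sides of 0, each with 1 array at background and neither above the brightest control. At such intensities neither direction can be shown. Among probe sets in that dim range, with a brighter value between the floor and the highest control, 4.12% of 1431 were at least 2-fold higher and 3.42% at least 2-fold lower. Of the 13 measured member probe sets, 4 lay in this range.

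The acyl-CoA dehydrogenases open each round of oxidation and divide the work by chain length. Acadvl, for very long chains, had an intensity of 1047.8 on the endocardial array, against 1246.7 on the aortic array (log2 ratio -0.25). Acadm, for medium chains, had 1642.9 on the endocardial array, against 1125.3 on the aortic array (log2 ratio 0.54). The values of both genes lay between the floor and the highest background control, a range in which neither a difference nor its absence can be shown. Acadl, for long chains, was well above it with J05029_s_at, at 4053.0 on the endocardial array, against 4691.7 on the aortic array (log2 ratio -0.21). Its other probe set, rc_AI639522_at, stood at 26.6 on the endocardial array, against 34.4 on the aortic array, and gave no ratio. Of the 3 dehydrogenases, Acadl alone was thus bright enough on both arrays for its ratio to be read, and that ratio was within the same-gene SD.

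Echs1, the short-chain enoyl-CoA hydratase of the mitochondrial matrix, adds water across the double bond left by the dehydrogenases. It rested on 1 probe set, X15958_at, with a log2 ratio of 2.59 (6.03-fold) at the intensities given above. The aortic value lay just above the floor and under the highest background control, and taken against that control the difference was at least 2.34-fold. Among the 1332 probe sets whose brighter value, like that of Echs1, lay between the highest background control and 5000, 9.91% were at least 2-fold higher and 5.48% at least 2-fold lower. Above 5000, where the remaining 3 measured member probe sets lay, the shares were 6.6% and 5.36% of 1212. No other probe set of the array was paired with Echs1 alone, so no second measurement of the same transcript bears on the difference.

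The sequence around the start of the Echs1 gene is shown because it belongs to the member with the largest difference. It is the RefSeq window of 250 bases before to 50 bases after the gene's start in assembly GRCr8, chr1:204333457-204333756 on the minus strand, with GC boxes (GGGCGG) and the nuclear receptor core motif (AGGTCA), searched on both strands, in capitals.
Echs1: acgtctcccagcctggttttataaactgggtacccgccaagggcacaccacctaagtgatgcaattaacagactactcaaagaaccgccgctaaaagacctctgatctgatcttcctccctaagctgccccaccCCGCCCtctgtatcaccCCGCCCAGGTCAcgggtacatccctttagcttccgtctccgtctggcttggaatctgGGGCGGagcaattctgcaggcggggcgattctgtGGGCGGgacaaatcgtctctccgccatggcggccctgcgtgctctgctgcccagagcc
The window held 4 GC boxes and 1 core motif, and the core motif directly adjoins a GC box without overlap. A GC box was found in 33.1% and the core motif in 16.2% of all 33469 RefSeq windows of this length. Of the 8 members with a window in the table, 5 held a GC box and 3 the core motif (Acadvl, Echs1 and Hadhb). The direct repeat of AGGTCA with any 1 base between its copies, the form bound by PPAR and RXR pairs, was in 0 of the 8 and in 0.0538% of all windows, and the letters TNAAGGTCA of the estrogen-related receptor element were in 0 of the 8 and 1.20% of all. The CCAAT box was in 1 of the 8, Hadha, and in 37.5% of all windows. Lpl and Acadl had no entry in the table. These matches describe letters only, and binding was not measured.

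Hadha and Hadhb encode the alpha and beta subunits of the mitochondrial trifunctional protein, an inner-membrane complex that carries out the hydratase, second dehydrogenase and thiolase steps on long chains. Hadhb had an intensity of 8256.3 on the endocardial array, against 6490.2 on the aortic array (log2 ratio 0.35). Hadha had 3 probe sets. D16478_at gave 8463.6 on the endocardial array, against 5946.9 on the aortic array (log2 ratio 0.51). D16478_g_at gave 7653.3 on the endocardial array, against 7845.9 on the aortic array (log2 ratio -0.04). The last, X98225_s_at, gave 3115.8 on the endocardial array, against 3261.2 on the aortic array (log2 ratio -0.07). The 3 probe sets of this transcript thus lay on both sides of 0, with 1 higher and 2 lower. Every value of both subunits exceeded the highest background control, and no probe set of either passed 2-fold. The log2 ratio of Hadhb lay inside the range of the 3 Hadha probe sets.

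The start region of this pair is shown because the 2 subunit genes lie head to head on opposite strands of chromosome 6. The start sites of their RefSeq windows are 301 bases apart in GRCr8, and the windows share 200 bases. The Hadhb gene is annotated up to base 31907557, beyond the start site of its window at 31907500. The Hadha window, chr6:31907551-31907850 on the plus strand, is given with the bases shared with the Hadhb window in capitals.
Hadha: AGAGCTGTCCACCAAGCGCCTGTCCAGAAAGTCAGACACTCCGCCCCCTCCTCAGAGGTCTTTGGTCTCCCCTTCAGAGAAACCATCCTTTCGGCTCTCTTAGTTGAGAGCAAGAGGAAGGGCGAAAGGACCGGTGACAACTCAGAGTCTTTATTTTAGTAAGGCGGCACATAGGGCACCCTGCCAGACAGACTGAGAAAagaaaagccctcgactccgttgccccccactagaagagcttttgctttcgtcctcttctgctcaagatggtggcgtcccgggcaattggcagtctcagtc
The Hadhb window reads the shared stretch from the other strand. The GC box was present 1 time in the Hadha window and 4 times in the Hadhb window, with matches in the shared stretch counted in both.

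**Figure D2:**
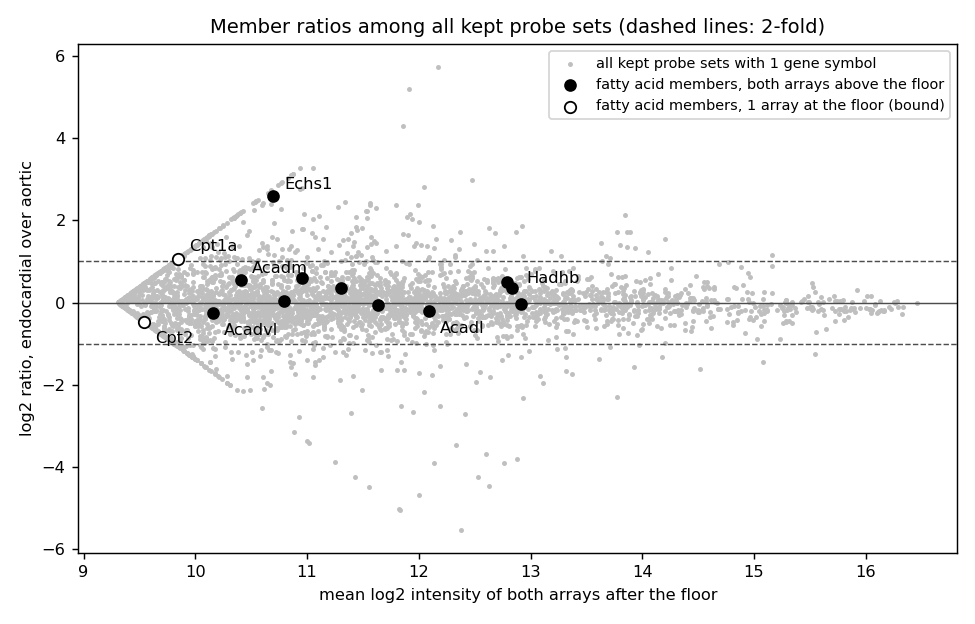
Log2 ratio, endocardial over aortic (vertical), against the mean log2 intensity of both arrays after the floor (horizontal) for all 3975 measured probe sets (grey) and the 13 measured member probe sets (black, or open where 1 array was at the floor); unlabelled black points belong to Lpl and Hadha. Echs1 (2.59) and Cpt1a (1.07) lie above the dashed 2-fold line and the other 11 between both lines.

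Other genes of fatty acid metabolism were read from 6 lists with 98 genes in all, members left out. Of these, 78 had a probe set on the array and 54 were measured. Among the 54, 3 passed 2-fold in the higher direction, where 5.93% of all measured genes did, and 6 in the lower, where 4.16% did. Their median log2 ratio was -0.0015, beside -0.02 over all genes. Against the highest control as the floor, 39 genes were measured, 0 passed in the higher and 2 in the lower direction, where 3.99% and 2.36% of 1904 genes did.

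The mitochondrial enzymes that work beside the members stayed within 2-fold, all 10 that were measured of 12 on the array, with a median log2 ratio of 0.01. The thiolase Acaa2, which completes each round, had the highest log2 ratio (0.47), followed by the acetoacetyl-CoA thiolase Acat1 (0.42). The short-chain dehydrogenase Acads (-0.31) and the electron-transferring flavoprotein subunit Etfa (-0.24) had the lowest. The 3 probe sets of Acat1 spanned -0.24 to 0.69. Against the highest control as the floor, Acat1 had -0.01 and Acads -0.04, while Acaa2 and Etfa were unchanged. Hadh, the dehydrogenase that follows Echs1 in the pathway, was under the floor on both arrays. The large Echs1 ratio thus had no counterpart of similar size among the measured enzymes of the same pathway.

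Of the genes of acyl-CoA synthesis and carnitine transport, 10 of 12 were measured and 0 passed 2-fold in either direction, with a median log2 ratio of 0.10. The carnitine-acylcarnitine carrier Slc25a20, which works between Cpt1a and Cpt2, had the highest, at 0.70, with 1241.6 on the endocardial array, against 763.3 on the aortic array. The peroxisomal carnitine octanoyltransferase Crot followed at 0.32. The thioesterase Acot2 was at least 1.61-fold lower and the carnitine transporter Slc22a5 at least 1.22-fold lower on the endocardial array. The muscle-type Cpt1b, the other isoform of the first shuttle step, had a log2 ratio of -0.26. None of Slc25a20, Acot2, Slc22a5 and Cpt1b exceeded the highest background control on either array.

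Among genes of fatty acid binding and uptake, 8 of 15 were measured, 1 passed 2-fold in each direction, and the list had a median log2 ratio of -0.01. The fatty acid transporter Slc27a1 was at least 2.07-fold higher, with 1318.9 on the endocardial array, against 496.3 on the aortic array. The lipoprotein receptor Vldlr had a log2 ratio of 0.93, with 7870.4 on the endocardial array, against 4133.9 on the aortic array. The monoglyceride lipase Mgll was at least 2.02-fold lower, with -27.8 on the endocardial array, against 1283.1 on the aortic array. Fabp5, a cytosolic fatty acid binding protein of endothelium and skin, had a log2 ratio of -0.89, with 28366.7 on the endocardial array, against 52634.8 on the aortic array. Fabp3, the heart-type protein, had a log2 ratio of 0.50, and Fabp4, which marks capillary endothelium and adipocytes, was under the floor on both arrays. Neither Slc27a1 nor Mgll exceeded the highest background control.

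Peroxisomes shorten very long chains by a parallel set of enzymes. Of 11 such genes on the array 8 were measured, of which 1 passed 2-fold higher and 0 passed 2-fold lower, at a median log2 ratio of 0.08. The higher gene was Hsd17b4, which carries out the peroxisomal hydratase and dehydrogenase steps, at a median log2 ratio of 1.17 over 3 probe sets that spanned 0.16 to 1.38. Against the highest control as the floor it was 0.52. The import factor Pex14 had a log2 ratio of 0.37, the thiolase Acaa1b -0.41 and catalase, Cat, -0.17.

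Of the regulators, 9 of 17 were measured, 1 passed 2-fold higher and 2 in the lower direction, at a median log2 ratio of 0.03. The AMP-activated kinase subunit Prkab1 was at least 2.04-fold higher, with 1297.4 on the endocardial array, against 607.8 on the aortic array. The uncoupling protein Ucp2 had a log2 ratio of 0.98 over 2 probe sets, both above 0. The nuclear receptor Nr2f1 had a log2 ratio of -1.25, with 651.3 on the endocardial array, against 1547.4 on the aortic array. Pdk1, which closes pyruvate dehydrogenase and is induced by hypoxia, had -1.09, with 1094.7 on the endocardial array, against 2330.2 on the aortic array. Against the highest control as the floor Pdk1 had -0.42. Neither Prkab1 nor Nr2f1 exceeded the highest background control. Ppara and Pparg, nuclear receptors that switch on oxidation and storage genes, and Pdk4, a widely used PPAR target, were under the floor on both arrays.

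The opposite pathway, fatty acid synthesis and storage, had a list median of -0.46, with 9 of 11 genes measured, 3 at least 2-fold lower and 0 higher. The stearoyl-CoA desaturase Scd was at least 5.97-fold lower on the endocardial array, with 486.3 on the endocardial array, against 3789.9 on the aortic array, and its other probe set was under the floor on both. The related desaturase Scd2 had a median log2 ratio of -1.33 over 5 probe sets, all lower, from -1.94 to -0.98. Srebf1, the transcription factor of lipid synthesis, was at least 2.65-fold lower, with both values under the highest background control. Fatty acid synthase, Fasn, had a log2 ratio of -0.48 and ATP citrate lyase, Acly, -0.46. The lipid droplet protein Plin2 (0.63) and the malic enzyme Me1 (0.09) had the highest. Against the highest control as the floor, Scd and Scd2 passed 2-fold lower among 8 measured genes, with log2 ratios of -1.12 and -1.33.

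**Figure D3:**
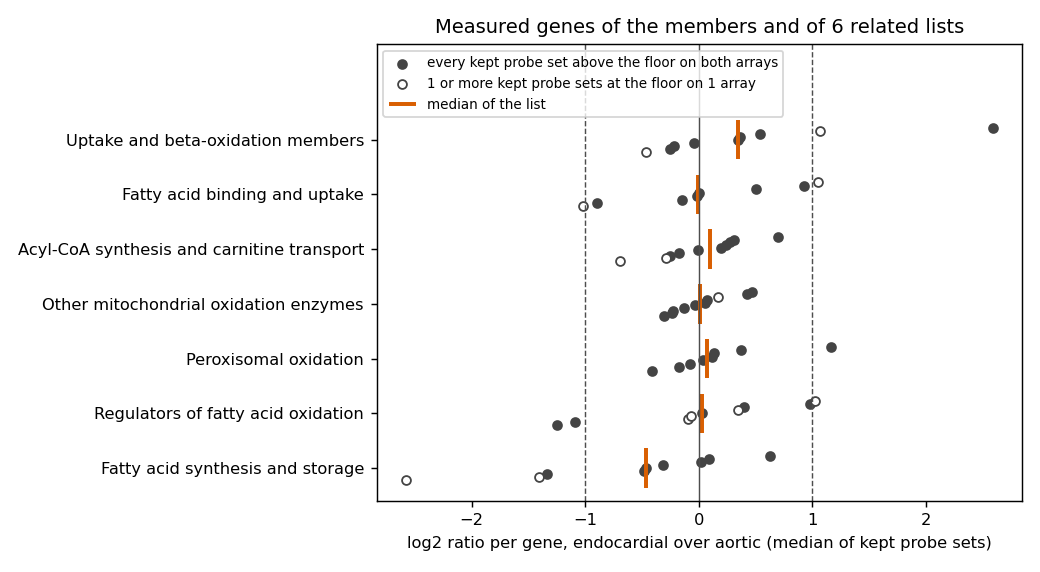
Log2 ratio per measured gene, endocardial over aortic (horizontal), for the 9 measured members and 6 related lists (rows); open points have a probe set at the floor on 1 array, vertical bars are list medians and dashed lines mark 2-fold. The member median was 0.35, the medians of 5 lists lay between -0.01 and 0.10, and that of synthesis and storage was -0.46.

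The labelled cell type was checked against markers. Of 8 endothelial markers on the array 4 were measured, and Vwf, Pecam1, Kdr and Icam2 were under the floor on both arrays. The summed intensity of the 8 was 4908 on the endocardial array, against 1637 on the aortic array. These sums include values below 0 and under the floor, so the gap between them cannot be read as a difference in endothelial signal. Icam2 had -90.1 on the endocardial array, against -3349.4 on the aortic array, and Vwf had 174.7, against -1107.55. The 4 measured markers had a median log2 ratio of -0.26. The endothelial identity of both cultures is thus taken from the labels and is not shown by these markers. Thrombomodulin, Thbd, had 2849.8 on the endocardial array, against 3918.4 on the aortic array, and the nitric oxide synthase Nos3 had a median of 1383 on the endocardial array, against 1396 on the aortic array. The VEGF receptor Flt1 had a log2 ratio of 0.35, and the converting enzyme Ace -1.16, or -0.40 against the highest control as the floor. Of 6 smooth muscle markers 5 were measured, of which Myl9 passed 2-fold higher and Myh11 2-fold lower. Myh11 rested on 1 of its 3 probe sets, and against the highest control as the floor its log2 ratio was -0.54. Acta2 had a median of 50067 on the endocardial array, against 26887 on the aortic array. Tagln had a median of 58775 on the endocardial array, against 49556 on the aortic array. The summed intensity of the 6 was 137240 on the endocardial array, against 94509 on the aortic array. All 7 fibroblast markers were measured, with 0 at least 2-fold higher, 1 lower, Dcn, and a summed intensity of 228812 on the endocardial array, against 267029 on the aortic array. The collagen Col1a1 had a median of 68202 on the endocardial array, against 74645 on the aortic array. Col1a2 had 64368 on the endocardial array, against 77259 on the aortic array. Cardiac muscle and fat are rich in these oxidation and uptake genes. Of 10 cardiomyocyte markers 5 were measured, with 0 at least 2-fold higher and 1 lower, Myh6, and with Actc1, Myl2 and Nppb under the floor on both arrays. The troponin Tnni3 exceeded the highest background control on both, with 2416.9 on the endocardial array, against 2175.1 on the aortic array, and Tnnt2 had a log2 ratio of 0.31. Of 8 adipocyte markers 3 were measured and 0 passed 2-fold, with Fabp4, Plin1, Lipe and Cfd under the floor on both arrays. Among the measured 3, Lep was bright, with 14645.5 on the endocardial array, against 19384.5 on the aortic array. The part of smooth muscle cells, fibroblasts, cardiomyocytes and adipocytes in the values of the members was not tested.

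The scaling of the arrays moved the member ratios little, while the floor moved those with a dim value, chiefly Echs1, Cpt1a and Cpt2. Under no rescaling, quantile normalisation, median centring and a loess on intensity, the log2 ratio of Echs1 lay between 2.57 and 2.64 and that of Cpt1a between 1.05 and 1.10. Against the highest control as the floor, Echs1 had a bound of 1.23 and Cpt1a, Cpt2, Acadvl and Acadm were not measured. With no floor Cpt1a had 1.33 and Cpt2 -1.07. The ratios of Hadha, Hadhb and the brighter Acadl probe set were the same under each of these floors.

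**Figure D4:**
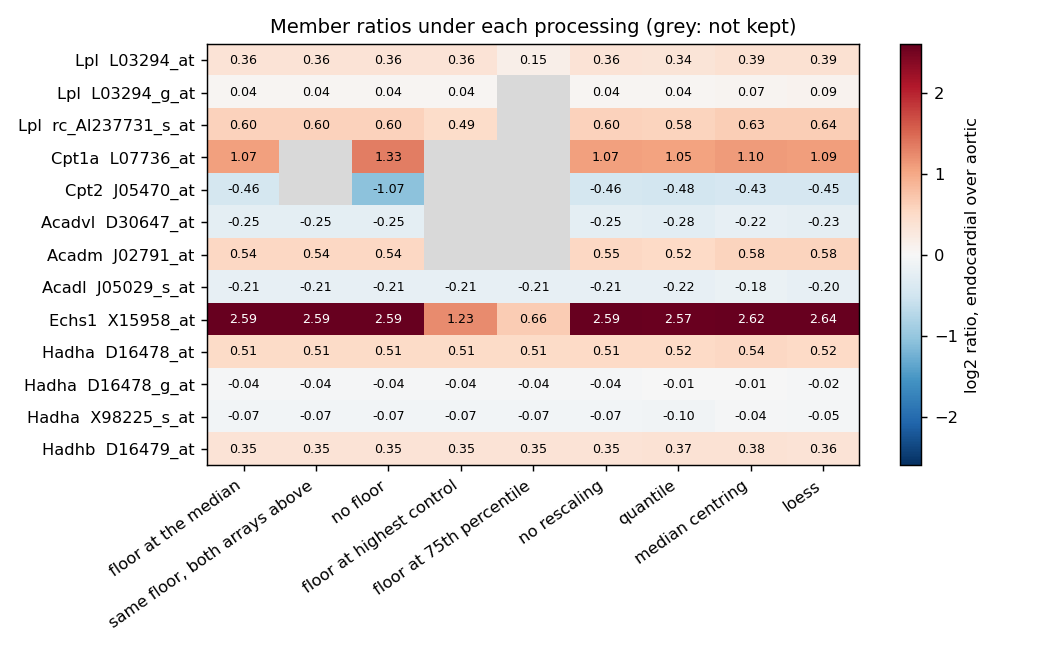
Log2 ratio, endocardial over aortic, of the 13 measured member probe sets (rows) under the floor at the median and 8 alternatives (columns); colour and number give the ratio, and grey marks a probe set not kept. Echs1 is 2.59 with the floor at the median, 1.23 against the highest control and 0.66 against the 75th percentile.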

How the data were processed

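Total RNA of 2 cultures was hybridised to 2 Affymetrix rat U34A arrays. The authors deposited 1 intensity per probe set and array on a linear scale; no source used here names the summary software. The 59 control probe sets were set aside, and the other 8740 were scaled to the 2% trimmed mean of the aortic array (factor 0.999 for the endocardial array). Printed intensities are the deposited ones; ratios, in log2, came from scaled values floored at their median (635). Symbols came from the platform annotation, updated by gene identifier through RefSeq (GRCr8): 7006 probe sets had 1 symbol, of which 6985 matched, 308 had several and 1426 had none. A gene's value was the median log2 ratio of its kept probe sets. With 1 array per group no test was made and genes were counted at 2-fold; the number of arrays limits the precision. The experiment records of the 2 arrays differed in 2 of 41 fields. The 3' to 5' intensity ratio of beta-actin was 1.09 on the endocardial and 1.11 on the aortic array. The counting was tested on simulated data with known differences, placed in bright probe sets without added noise. That run checks the counting steps only and does not bear on ratios with a value near the floor.

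The members and lists were chosen with earlier results of these data known. Named genes were all members, the 2 highest and 2 lowest measured genes of each related list, and every list gene past 2-fold. Marker genes were named where they passed 2-fold or where a defining marker was under the floor. Cpt1b, Hadh, Fabp3, Fabp4, Fasn, Acly, Ppara, Pparg, Pdk4, Thbd, Nos3, Flt1, Tnni3, Tnnt2, Lep and Gpam were added after their values had been seen. So were Acta2, Tagln, Col1a1, Col1a2, Cd14 and Ptprc. Alternatives were no rescaling, quantile normalisation, median centring, loess (span 0.4), a floor at the 75th percentile (2575) or the highest background control, no floor, both arrays above the floor, and for genes the brightest or the plain probe sets. Python 3.11.15, NumPy, pandas 2.3.3 and SciPy were used.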

Additional observations from a re-analysis of the deposited data

Results flagged for a closer look

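The annotation pairs 5 probe sets with both Cd36 and Cd36l1, so they were left out of the values above. One of them, AF072411_g_at, had an intensity of 1915.2 on the endocardial array, above the highest background control (1743.4), against 146.5 on the aortic array, a signal in data that no comparison above used. All 5 were brighter on the endocardial array, and 4 were above the floor there while 0 were on the aortic array. AF072411_at had 906.3 on the endocardial array, against 34.3 on the aortic array. rc_AA946368_at had 1304.8 on the endocardial array, against 93.5 on the aortic array. rc_AA925752_at had 850.5 on the endocardial array, against -35.0 on the aortic array, and rc_AA799326_s_at had 411.5 on the endocardial array, against -632.6 on the aortic array. The 5 share their 2 symbols and are not independent measurements. Which of the 2 genes they read, and the part of macrophages, which also express Cd36, were not tested.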

How the results depend on the processing

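The 2 member probe sets Echs1 and Cpt1a were at least 2-fold higher with the floor at the median. The count was 0 of 7 with a 75th-percentile floor, 1 of 9 against the highest background control and 1 of 11 when both arrays had to be above the floor. The count of lower member probe sets, 0, became 1 of 14 with no floor (Cpt2). The median log2 ratio of the member probe sets, 0.35, was 0.15 with a 75th-percentile floor and 0.19 with no floor. It stayed at 0.35 against the highest background control. Of the 54 related genes, 3 were higher and 6 lower; with a 75th-percentile floor 0 were higher and 1 lower of 30, and against the highest background control 0 were higher and 2 lower of 39. A higher floor measures fewer genes and limits how large a ratio can be. Of 209 values recomputed under an alternative, 173 kept their count within 1.5 times or moved by at most the same-gene SD (0.39), 36 moved further, and 0 called values reversed. Under the 4 scaling alternatives, all 16 values for the members were among the 173. The log2 ratio of gene Hadha, -0.04 as a median, was 0.51 with its brightest or plain probe set. No paired analysis was possible because each group had 1 array.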

Other observations

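Leptin, Lep, listed here as an adipocyte marker, was bright on both arrays with 1 of its 3 probe sets, at 14645.5 on the endocardial array, against 19384.5 on the aortic array (log2 ratio -0.41), while its other probe sets were under the floor on both. Gpam, which starts triglyceride synthesis, was measured with 1 of its 5 probe sets, at 5132.5 on the endocardial array, against 5058.4 on the aortic array (log2 ratio 0.02).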
